A study of Mus musculus with 12 samples.

Results

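The 10 genes described here encode carriers of proximal tubule cells that move phosphate, glucose, sodium, bicarbonate, sulfate and dicarboxylates into or out of the cell. They were chosen by name from the 44792 gene symbols of the deposited count table, as Slc34a1, Slc34a3 and Slc20a2 for phosphate, Slc5a2, Slc5a1 and Slc2a2 for glucose, Slc9a3 and Slc4a4 for sodium and acid-base transport, and Slc13a1 and Slc13a3 for sulfate and dicarboxylates, and all 10 were found and passed the filter on low counts. RNA-seq counts were available for tubular epithelial cells isolated from the kidney cortex of C57BL/6 mice, with 12 libraries from 4 genotypes and 3 mice in each. Wild type mice carried floxed Setd2 (Setd2fl/fl) without Cre. Setd2 knockout mice were Ksp1.3/cre; Setd2fl/fl, MYC-overexpressing mice (below, MYC) were Ksp1.3/cre; MYCfl/fl, and mice with both changes (MYC Setd2 knockout) were Ksp1.3/cre; MYCfl/fl;Setd2fl/fl. Floxed Setd2 was thus shared by every group but MYC, and Cre by every group but wild type, so no Cre control without a floxed allele stands beside them. The Ksp1.3/cre transgene uses the Ksp-cadherin promoter, known as a driver of tubular expression that is stronger in distal than in proximal segments. The labels give neither age nor the way the MYC allele raises MYC.

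The proximal tubule reclaims most of the filtered phosphate, glucose, sodium and bicarbonate. Many apical carriers use the inward sodium gradient set by the basolateral sodium pump, and some basolateral carriers, such as Slc2a2 for glucose, pass solutes on to blood. In mouse kidney Slc34a1 is the main phosphate cotransporter, Slc5a2 takes up glucose in the early segment and Slc5a1 in the late segment.

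Gene-level counts summed to between 22997852 and 44227191 for wild type libraries and between 16657538 and 41608501 for Setd2 knockout. For MYC the totals were between 15712963 and 17132375, and for MYC Setd2 knockout between 8889185 and 14314434. Libraries differed in counted mitochondrial rRNA (Rnr1 and Rnr2), and this divided them into 3 sets. Set 1, above 10000 CPM (counts scaled to a common library total), held the 3 wild type libraries and Setd2 knockout replicates 1 and 2. Set 3, under 100 CPM, held Setd2 knockout replicate 3, MYC replicates 2 and 3 and MYC Setd2 knockout replicate 3, and set 2 in between held the other 3 libraries. Setd2 knockout replicate 3 and MYC Setd2 knockout replicates 1 and 3 had no Y-linked transcripts and had Xist at 446 CPM or more, while the other 9 libraries had Y-linked transcripts. Setd2 itself was counted at 45.6 to 102 CPM in all 12 libraries, with 56.0 to 68.6 in wild type and 50.9 to 69.7 in Setd2 knockout, and a gene-level count does not show whether the floxed exons were lost. Wild type libraries had 2.48 to 2.72 CPM of mouse Myc, MYC libraries 3.56 to 7.06 and those of MYC Setd2 knockout 2.02 to 17.8. In CPM 54.6% of all genes tested were higher in every MYC library than in every wild type library, so these ranges alone do not show raised Myc. The labelled cell type had its markers: all 14 proximal tubule markers (Lrp2 and Cubn among them) were above 0 in all 12 libraries, and summed they reached 43611 to 51778 CPM in set 1, 28857 to 48047 in set 2, which overlaps it, and 5657 to 20411 in set 3, below both.

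Of the 10 genes, 7 matched a promoter in the RefSeq table (GRCm38.p6, 250 bases before to 50 after the start). The 4 windows that hold a searched match to the letters of an HNF1 or MYC motif are shown. Any link of these letters to the transcript levels was not tested. Capitals mark GTTAAT or its reverse complement ATTAAC, the core letters of the HNF1 site, in Slc34a1, and CACGTG, the E-box bound by MYC, in the other 3 genes.
Slc34a1, chr13:55399398-55399697, plus strand: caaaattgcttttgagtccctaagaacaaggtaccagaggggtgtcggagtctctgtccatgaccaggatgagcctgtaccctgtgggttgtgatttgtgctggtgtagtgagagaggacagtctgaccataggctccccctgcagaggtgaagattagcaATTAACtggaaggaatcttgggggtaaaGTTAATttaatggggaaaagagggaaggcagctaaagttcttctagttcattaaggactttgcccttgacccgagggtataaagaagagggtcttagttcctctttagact
Slc5a1, chr5:33103969-33104268, plus strand: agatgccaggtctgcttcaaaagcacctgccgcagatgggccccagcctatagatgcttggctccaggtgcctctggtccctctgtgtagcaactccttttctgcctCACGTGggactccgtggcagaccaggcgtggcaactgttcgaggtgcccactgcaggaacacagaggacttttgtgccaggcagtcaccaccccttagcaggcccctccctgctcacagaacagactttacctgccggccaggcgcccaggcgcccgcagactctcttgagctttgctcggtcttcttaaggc
Slc9a3, chr13:74121163-74121462, plus strand: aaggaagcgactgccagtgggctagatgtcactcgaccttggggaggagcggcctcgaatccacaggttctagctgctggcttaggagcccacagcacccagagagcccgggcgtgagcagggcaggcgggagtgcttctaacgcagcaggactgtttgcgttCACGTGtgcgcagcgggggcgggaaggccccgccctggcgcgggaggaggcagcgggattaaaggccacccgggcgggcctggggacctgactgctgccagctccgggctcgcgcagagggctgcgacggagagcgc
Slc13a3, chr2:165473148-165473447, minus strand: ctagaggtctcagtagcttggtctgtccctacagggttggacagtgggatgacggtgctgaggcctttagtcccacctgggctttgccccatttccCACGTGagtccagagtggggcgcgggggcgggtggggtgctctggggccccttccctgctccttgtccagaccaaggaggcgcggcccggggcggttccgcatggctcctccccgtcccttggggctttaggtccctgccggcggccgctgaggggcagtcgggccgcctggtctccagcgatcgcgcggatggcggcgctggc
The HNF1 core letters began 89 and 61 bases before the Slc34a1 start. The E-box letters began 143 bases before the start in Slc5a1, 87 in Slc9a3 and 154 in Slc13a3. Over 32851 promoter windows of the same length, searched on both strands, 7.1% held GTTAAT and 7.15% held CACGTG. An HNF4 sequence, CAAAGTCCA (0.475% of windows), was in none of the matched windows. These are letter matches only.

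In wild type cells Slc34a1 was the most abundant of the 10 transcripts per kilobase of deposited transcript length, at 2062 ± 273 CPM per kilobase (SD, n = 3). Slc5a2 followed at 394 ± 61.1, Slc13a3 at 248 ± 44.2, Slc13a1 at 166 ± 14.7, Slc2a2 at 117 ± 8.03, Slc4a4 at 67.3 ± 12.7 and Slc34a3 at 47.0 ± 9.52. The lowest were Slc9a3 at 23.9 ± 2.27, Slc5a1 at 14.9 ± 1.97 and Slc20a2 at 13.4 ± 0.712 CPM per kilobase. The wild type ranges of neighbours in this order did not overlap, except for Slc5a1 and Slc20a2. In MYC Setd2 knockout replicate 3 the order was different: Slc4a4 stood first at 40.9 CPM per kilobase, then Slc20a2 at 23.6, Slc13a1 at 7.66 and Slc34a1 at 6.85.

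Together the 10 genes made up 8764 to 10838 CPM in the wild type libraries. Their sum was 10970, 10825 and 5205 CPM in Setd2 knockout replicates 1, 2 and 3. It was 7995, 1855 and 1654 CPM in the MYC libraries and 10309, 8225 and 518 in the MYC Setd2 knockout libraries. The 4 libraries of set 3 thus had the 4 lowest sums, and the lowest value in each altered genotype came from set 3. In bulk libraries of this kind, fewer cells of a type and less RNA per cell cannot be told apart.

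**Figure D1:**
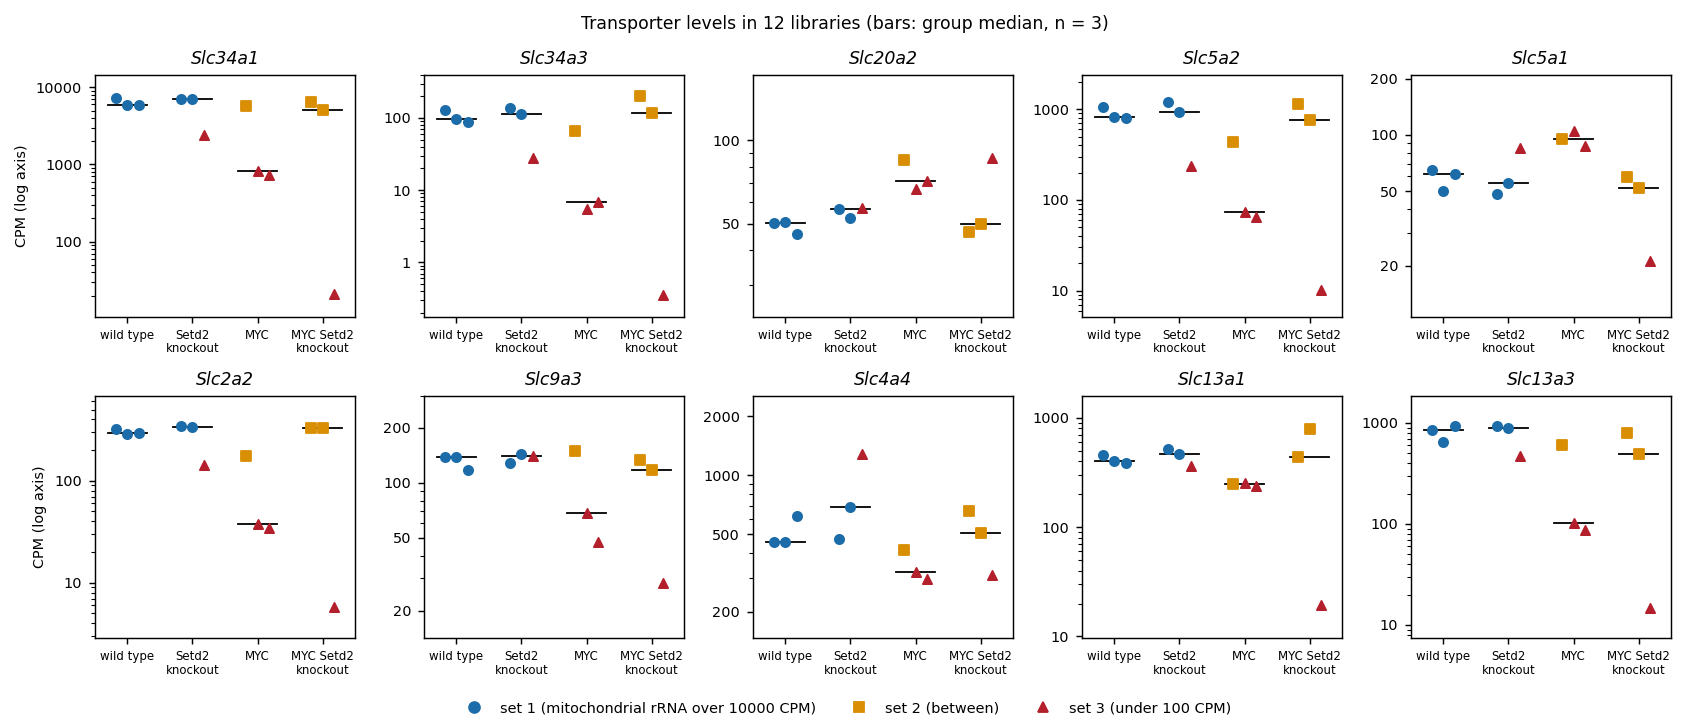
Level of each transporter gene in CPM (log axis, scaled per gene) in the 12 libraries by genotype; each point is 1 library, colour and shape give the set by counted mitochondrial rRNA, and the bar is the group median (n = 3). Slc34a1 lies between 5011 and 7320 CPM in the 8 libraries of sets 1 and 2 and between 21.1 and 2404 in the 4 of set 3, while Slc20a2 stays between 46.0 and 86.3 in all 12.

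The phosphate carriers came first. Slc34a1 (chromosome 13, 55399622 to 55414695, plus strand, deposited GRCm38 coordinates) encodes the main apical sodium-phosphate cotransporter. It was counted at 7320, 5814 and 5923 CPM in wild type, 7128, 7160 and 2404 in Setd2 knockout, 5719, 819 and 720 in MYC, and 6501, 5011 and 21.1 in MYC Setd2 knockout. All 3 MYC libraries were below all 3 wild type libraries, although MYC replicate 1 was close to them, and the other pairs of groups overlapped. MYC against wild type gave a log2 fold change of -1.95 ± 1.51 (SE), with an adjusted p of 0.358 (quasi-likelihood F test of edgeR, p-values adjusted by Benjamini and Hochberg's method over 17019 genes, used throughout). MYC Setd2 knockout against MYC gave 1.02 ± 1.47 (adjusted p = 0.848). Slc34a1 was 60.9% to 71.5% of the summed counts of the 10 genes in sets 1 and 2, 43.6% to 46.2% in 3 libraries of set 3 and 4.07% in MYC Setd2 knockout replicate 3.

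Slc34a3 (chromosome 2, 25228897 to 25234271, minus strand) encodes the second apical phosphate cotransporter of this segment. Its levels were 129, 97.8 and 88.5 CPM in wild type, 138, 113 and 27.9 in Setd2 knockout, 66.2, 5.47 and 6.81 in MYC, and 200, 117 and 0.349 in MYC Setd2 knockout. The last value rests on 5 counts, with an exact 95% Poisson interval of 0.113 to 0.815 CPM that covers counting error only. As with Slc34a1, the MYC libraries were all below wild type, and the log2 fold change of -2.55 ± 1.57 did not pass (adjusted p = 0.253). MYC Setd2 knockout against MYC gave 2.35 ± 1.56 (adjusted p = 0.593), with the MYC Setd2 knockout libraries on both sides of the MYC libraries.

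Slc20a2 (chromosome 8, 22476700 to 22569616, plus strand) encodes a phosphate transporter of the SLC20 family that is present in many tissues. It did not share the pattern of the SLC34 pair: its 12 values ran from 46.0 to 86.3 CPM, with 50.4, 50.5 and 46.0 in wild type, 85.0, 66.9 and 71.1 in MYC and 86.3 in MYC Setd2 knockout replicate 3, the library where Slc34a1 was lowest. In CPM the MYC libraries were all above wild type. After TMM scaling the groups overlapped and the log2 fold change was -0.12 ± 0.22 (adjusted p = 0.712). With total counts in place of TMM the change was 0.60 beside a shift of 0.75 in the median gene, so its direction depends on the scaling. The Slc34a1 to Slc20a2 ratio of counts per kilobase was 137 to 172 in wild type, 149, 163 and 50 in Setd2 knockout, 79.9, 14.5 and 12 in MYC, and 166, 119 and 0.290 in MYC Setd2 knockout.

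For glucose, Slc5a2 (SGLT2; chromosome 7, 128265697 to 128272433, plus strand) encodes the early-segment cotransporter. Its levels in CPM were 1048, 819 and 801 in wild type, 1209, 924 and 237 in Setd2 knockout, 437, 73.8 and 65.4 in MYC, and 1152, 754 and 10.2 in MYC Setd2 knockout. Every MYC library was below every wild type library. The log2 fold change of MYC against wild type was -2.78 ± 1.39, the lowest of the 10 genes, and did not pass (adjusted p = 0.171). Slc5a2 overlaps BC017158 on the opposite strand by 1055 bases, a gene counted at up to 47.83 CPM; the kit keeps strand, but no source used here states the strand setting of the counting.

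Slc5a1 (SGLT1; chromosome 5, 33104219 to 33162699, plus strand), the late-segment cotransporter, was counted at 64.7, 50 and 61.5 CPM in wild type, 48.5, 55.3 and 85.2 in Setd2 knockout, 94.8, 105 and 87.3 in MYC, and 59.6, 52.0 and 21.3 in MYC Setd2 knockout. The MYC libraries were all above wild type in CPM and overlapped it after TMM scaling, where the log2 fold change was -0.04 ± 0.40 (adjusted p = 0.954); with total counts it was 0.70. All 3 MYC Setd2 knockout libraries were below all 3 MYC libraries in CPM, with a log2 fold change of -0.64 ± 0.40 (adjusted p = 0.565). The balance of both glucose cotransporters differed widely between libraries. The Slc5a2 to Slc5a1 ratio per kilobase was 28.2, 28.5 and 22.7 in wild type, 43.4, 29.1 and 4.85 in Setd2 knockout, 8.02, 1.23 and 1.30 in MYC, and 33.7, 25.3 and 0.833 in MYC Setd2 knockout. Both transcripts were therefore near parity per length in 3 libraries of set 3, where Slc5a2 was low and Slc5a1 was at 21.3 to 105 CPM.

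Slc2a2 (GLUT2; chromosome 3, 28697903 to 28728361, plus strand), the basolateral glucose exit carrier, followed Slc5a2. It was at 286 to 324 CPM in wild type, 342, 338 and 142 in Setd2 knockout, 174, 37.4 and 34.8 in MYC, and 326, 332 and 5.73 in MYC Setd2 knockout. MYC lay below wild type in all 3 libraries, with a log2 fold change of -2.46 ± 1.20 (adjusted p = 0.164). MYC Setd2 knockout against MYC gave 1.82 ± 1.18 (adjusted p = 0.579).

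**Figure D2:**
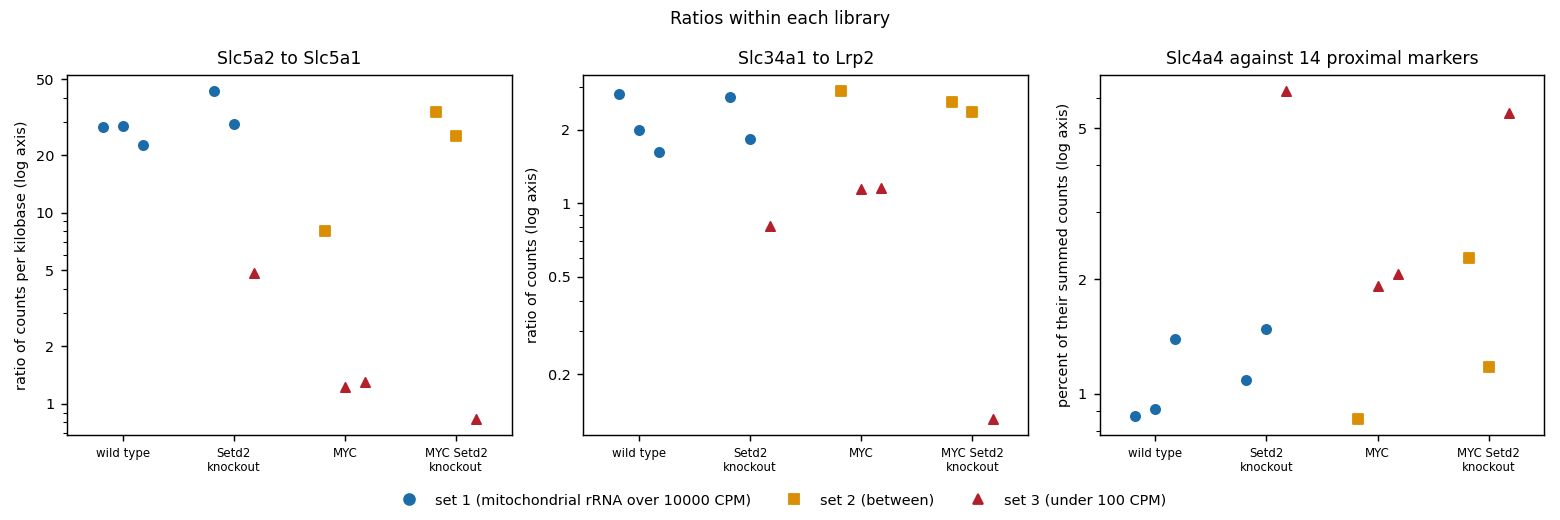
Ratios within each library on log axes: Slc5a2 to Slc5a1 per kilobase (left), Slc34a1 to Lrp2 counts (middle) and Slc4a4 as a percent of the summed counts of 14 proximal tubule markers (right); each point is 1 library, coloured by set. The Slc5a2 to Slc5a1 ratio is 22.7 to 43.4 in set 1 and 0.833 to 4.85 in set 3, and Slc4a4 is 0.877% to 1.48% of the marker sum in set 1 and 1.92% to 6.26% in set 3.

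Sodium and acid-base transport was represented by an apical and a basolateral carrier. Slc9a3 (NHE3; chromosome 13, 74086252 to 74169442, plus strand) encodes the apical sodium-hydrogen exchanger, and its deposited start lies upstream of the GENCODE vM21 start at 74121457. Its range over the 9 libraries other than MYC replicates 2 and 3 and MYC Setd2 knockout replicate 3 was 117 to 150 CPM. Those 3 libraries had 68.6, 47.3 and 28.3 CPM. MYC replicate 1, at 150 CPM, was above wild type (117 to 139), so the groups overlapped in CPM; after TMM scaling MYC was below wild type in all 3 libraries, with a log2 fold change of -1.21 ± 0.65 (adjusted p = 0.195).

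Slc4a4 (NBCe1; chromosome 5, 88887260 to 89239656, plus strand), the basolateral sodium-bicarbonate cotransporter, had 454, 456 and 622 CPM in wild type, 474, 687 and 1278 in Setd2 knockout, 413, 321 and 294 in MYC, and 658, 505 and 310 in MYC Setd2 knockout. Unlike the other abundant carriers, it was highest in a library of set 3, Setd2 knockout replicate 3, and kept 310 CPM in MYC Setd2 knockout replicate 3. MYC lay below wild type in every library. The log2 fold change of -1.29 ± 0.45 had the smallest adjusted p of the 10 genes in that comparison, 0.0825, and an unadjusted p under 0.05. Averaged over Setd2 status, MYC against no MYC gave -1.01 ± 0.31 (adjusted p = 0.0593). DESeq2 called both (adjusted p = 0.0213 and 0.00901). Leaving out MYC replicate 1 brought the edgeR change against wild type to -1.60 (adjusted p = 0.0417). As a share of the summed counts of 14 proximal tubule markers, Slc4a4 was 0.877% to 1.39% in wild type, 1.09%, 1.48% and 6.26% in Setd2 knockout, 0.859%, 1.92% and 2.07% in MYC, and 2.28%, 1.18% and 5.49% in MYC Setd2 knockout. It therefore made up a larger share of the marker sum in all 4 libraries of set 3 than in any of the 5 libraries of set 1.

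The last pair carries anions. Slc13a1 (NaS1; chromosome 6, 24088283 to 24168124, minus strand), the apical sulfate cotransporter, was at 389 to 460 CPM in wild type and 364 to 514 in Setd2 knockout. MYC held 250, 255 and 240 CPM, a narrow range below all wild type libraries, and MYC Setd2 knockout held 434, 797 and 19.3. It was the gene with the closest MYC libraries of the 8 that were lower in MYC after TMM scaling. Its log2 fold change against wild type was -1.49 ± 0.91 (adjusted p = 0.249); with only wild type and MYC fitted it was -1.46 (adjusted p = 0.00906), and it and Slc4a4 then passed, as did 31.7% of all genes.

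Slc13a3 (NaDC3; chromosome 2, 165405295 to 165473225, minus strand), the basolateral dicarboxylate cotransporter, was at 646 to 924 CPM in wild type and 932, 891 and 468 in Setd2 knockout. It had 606, 103 and 86.9 CPM in MYC and 797, 490 and 14.8 in MYC Setd2 knockout. All MYC libraries were below wild type, with a log2 fold change of -2.17 ± 1.21 (adjusted p = 0.212).

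**Figure D3:**
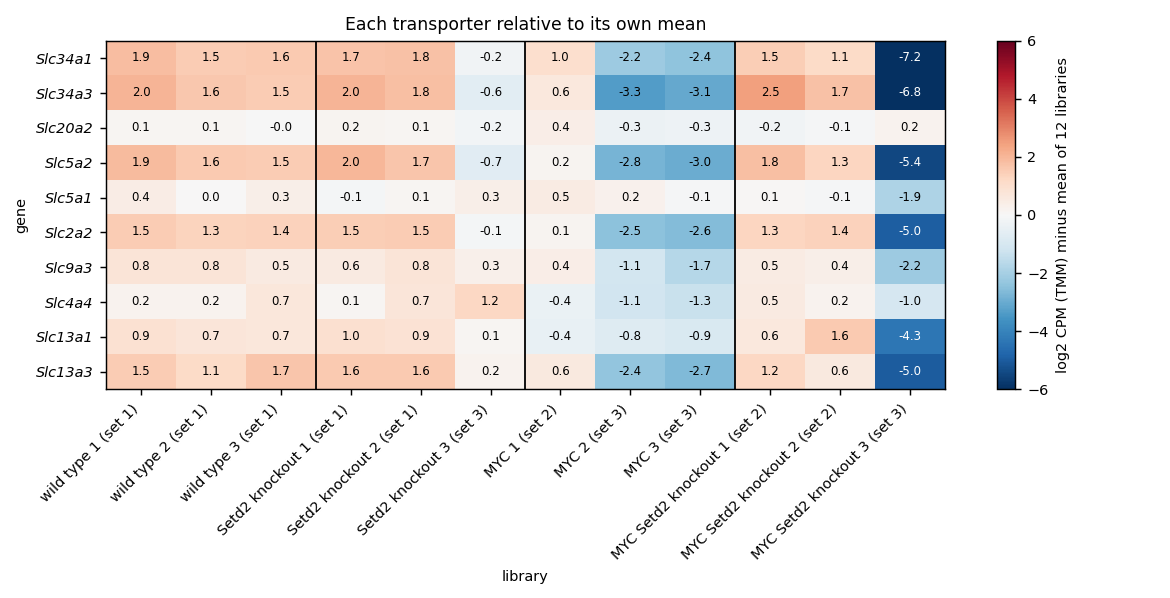
TMM-scaled log2 CPM of each gene minus its own mean over the 12 libraries; rows are genes, columns libraries with their set, and lines separate genotypes. MYC Setd2 knockout replicate 3 holds the lowest value of 8 genes, and Slc20a2 and Slc4a4 are the exceptions.

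Setd2 knockout against wild type was the comparison for Setd2 loss without MYC, although these groups also differ in Cre. None of the 10 genes passed an adjusted p of 0.05, and 0.0% of the 17019 genes were called. None had an unadjusted p under 0.05, and DESeq2 called none of the 10 (0.361% of all genes). Log2 fold changes ran from -0.33 for Slc34a1 to 0.40 ± 0.44 for Slc4a4, with a median of -0.20 beside -0.01 for all genes. Within set 1, Setd2 knockout replicates 1 and 2 stood a median of 0.09 above wild type over the 10 genes (log2, all genes -0.01). Setd2 knockout replicate 3 differed from the other replicates by a median of -1.07, with Slc34a1 at -1.95, Slc5a2 at -2.53, Slc5a1 at 0.34 and Slc4a4 at 0.79. In its group this library alone was in set 3 and alone lacked Y-linked transcripts. The set and the lack of Y-linked transcripts cannot be told apart in it. Only Slc20a2 had groups that did not overlap in CPM, being higher in knockout, where 9.91% of genes were. After TMM scaling none of the 10 had groups that did not overlap, where 3.53% of genes were lower and 3.22% higher.

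MYC against wild type was the comparison with the widest separation of groups. None of the 10 genes passed, where 7.99% of all genes tested were called; 1 had an unadjusted p under 0.05, and DESeq2 called 1 (27.3% of all genes), Slc4a4 in both cases. All 10 log2 fold changes were below 0 with TMM scaling and 8 with total counts, where Slc20a2 and Slc5a1 were above. With TMM scaling the median was -1.72 beside 0.00 for all genes. The 14 proximal tubule markers were likewise all below 0 with TMM scaling, with a median of -1.83, so the direction is shared by other genes of the segment. After TMM scaling 8 of the 10 genes had all MYC libraries below all wild type libraries, where 25% of genes did, and in CPM 7 did, where 6.5% did. Slc20a2 and Slc5a1 were outside both counts; in CPM they were higher in all MYC libraries, as were 54.6% of genes. MYC replicate 1 differed from wild type by a median of -0.82 (log2), and MYC replicates 2 and 3 differed from MYC replicate 1 by a median of -2.24. The share of all genes called rests on single libraries too: without wild type replicate 1, 2 or 3, or MYC replicate 2 or 3, between 1 and 3 genes of the whole table passed. No set holds libraries of both genotypes. Without set 3, which leaves MYC replicate 1 as the only MYC library and assumes that it varies like the other groups, 4 genes passed (Slc34a3 at -1.11, Slc5a2 at -1.46, Slc2a2 at -1.22 and Slc13a1 at -1.18), where 16.3% of all genes did. With the set as a term in the fit, 2 passed (Slc9a3 at -1.87 and Slc4a4 at -2.46; 2.39% of all genes). In that fit Setd2 knockout replicate 3, which lacked Y-linked transcripts, is the only library that links set 1 to the other sets. The adjustment between wild type and MYC therefore rests on 1 library and cannot separate MYC from set. Without MYC replicate 1, Slc4a4 and Slc9a3 passed (24.9% of all genes), Slc9a3 at -2.05 (adjusted p = 0.0459).

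MYC Setd2 knockout was compared with MYC for the effect of Setd2 loss under MYC. None of the 10 genes was called by edgeR or DESeq2 or had an unadjusted p under 0.05, where edgeR called 0.176% and DESeq2 4.65% of all genes. Of the log2 fold changes, 9 were above 0 and Slc5a1 was below, with a median of 1.05 (all genes 0.05). The direction differed between sets: MYC Setd2 knockout replicates 1 and 2 stood a median of 0.55 above MYC replicate 1 in set 2, and MYC Setd2 knockout replicate 3 differed from MYC replicates 2 and 3 by a median of -2.44 in set 3. In CPM only Slc5a1 had groups that did not overlap, lower in MYC Setd2 knockout, as were 15.4% of genes; none was higher in all libraries, where 1.42% of genes were. After TMM scaling no gene of the 10 was separated in this way, where 6.66% of genes were lower and 5.86% higher. With the set as a term the median over the 10 genes was -0.53 and 8 were below 0. In set 3 the difference was -4.97 for Slc34a1, -3.46 for Slc13a1 and -2.55 for Slc5a2, beside 0.53 for Slc20a2 and 0.22 for Slc4a4. Without set 3, Slc34a3 (1.51), Slc5a2 (1.37) and Slc2a2 (1.18) passed, as did 3.92% of all genes. The fit without set 3 has MYC replicate 1 as its only MYC library and assumes that it varies like the other groups. Its calls therefore rest on 1 unreplicated library. Leaving out MYC Setd2 knockout replicate 3 alone, Slc13a1 passed at 1.85 (adjusted p = 0.0257; 3.24% of all genes).

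MYC Setd2 knockout was also compared with Setd2 knockout, for MYC without Setd2. Again none of the 10 genes passed by edgeR or DESeq2 or at an unadjusted p under 0.05, where edgeR called 0.0% and DESeq2 1.1% of all genes; log2 fold changes ran from -0.86 for Slc13a3 to 0.11 for Slc34a3, with a median of -0.46 (all genes 0.01). No gene of the 10 had groups that did not overlap, where 3.8% of genes were lower and 5.61% higher in CPM, and 4.41% and 5.56% after TMM scaling. Same-numbered libraries of these groups deviated together. Replicate 3 is the only library of set 3 in both groups, so pairing and set cannot be told apart. With the replicate number as a block the median was -0.75, all 10 values were below 0 and none passed. In set 3, where each genotype has 1 library, MYC Setd2 knockout differed from Setd2 knockout by a median of -4.59, and Slc20a2 alone was higher (0.38). With the set as a term, Slc5a1 (-1.67), Slc9a3 (-2.22), Slc4a4 (-2.06) and Slc13a3 (-4.08) passed, as did 8.85% of all genes. There too Setd2 knockout replicate 3 alone links set 1 to the other sets. The interaction of Setd2 knockout with MYC tests whether MYC Setd2 knockout against MYC differs from Setd2 knockout against wild type. Only the latter also differs in Cre. The interaction called none of the 10 genes by either tool (0.0118% of all genes by edgeR and 1.63% by DESeq2), and none had an unadjusted p under 0.05. Values ran from -0.49 for Slc5a1 to 2.65 ± 2.13 for Slc34a3. The median was 1.33, and -0.65 with the set as a term. Averaged over Setd2 status, MYC gave a median of -1.12 (all genes 0.02, the 14 proximal tubule markers -1.26). None of the 10 was called by edgeR, where 11.7% of all genes were. DESeq2 called Slc4a4, where 24.4% of all genes were called. In that comparison 4 genes passed with the set as a term (7.23% of all genes), 3 without set 3 (19.5%) and 2 without MYC replicate 1 (23.6%). Without set 3 the MYC group is again MYC replicate 1 alone, and with the set as a term the link to set 1 is again Setd2 knockout replicate 3 alone. These comparisons share libraries, and their values are not independent.

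**Figure D4:**
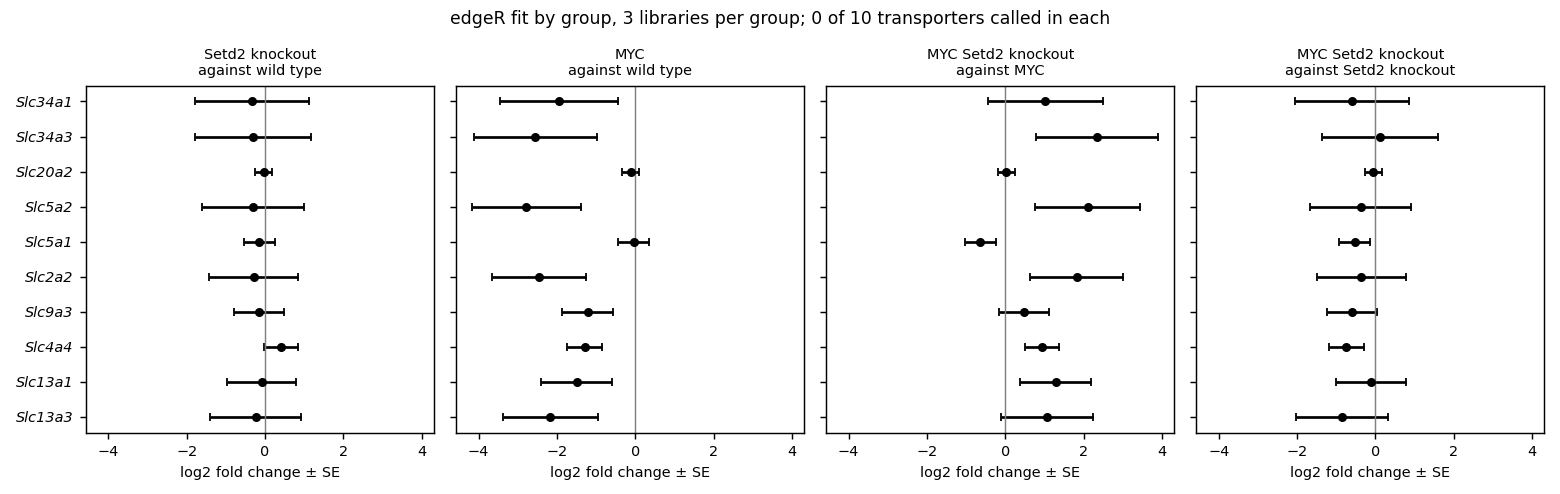
Log2 fold change of each gene with its SE in 4 comparisons (edgeR fit by genotype, 3 libraries per group). The MYC against wild type values lie between -2.78 and -0.04, the Setd2 knockout against wild type values between -0.33 and 0.40, and none passes an adjusted p of 0.05.

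Markers of other cells and of injury differed between these libraries. The 5 counted macrophage markers, all above 0 in every library, summed to 14.9 to 25.4 CPM in set 1, more in set 2 (30.6 to 91.1) and most in set 3 (114 to 651). Of those 5 markers 4 rose in MYC against wild type, where 957 of the 17019 genes tested rose. The 5 injured tubule markers summed to 735 to 997 CPM in set 1, 925 to 2748 in set 2, which overlaps it, and 1432 to 8571 in set 3, and 2 of the 5 rose in MYC against wild type; Havcr1 was at 0 in MYC Setd2 knockout replicate 1. Fibroblast and mural markers summed to 52.9 to 122 CPM in set 1 and 225 to 1106 in set 3. The 5 urothelium markers all rose in MYC against wild type, with sums of 53.3, 48.6 and 183 CPM in MYC, 2.17 to 7.21 in wild type and 1.23 to 8.31 in MYC Setd2 knockout. Intercalated cell markers summed to 657 to 861 CPM in MYC and 160 to 182 in wild type, and 1 of 5 rose. Podocyte markers summed to 107 to 132 CPM in MYC and 323 to 560 in wild type, and none of 5 passed. In MYC Setd2 knockout replicates 1, 2 and 3 the podocyte sums were 1087, 1067 and 75.5 CPM. The part of all these other markers in the transporter levels was not tested. A ratio within the proximal tubule also differed: Slc34a1 over Lrp2, the endocytic receptor of the same cells, was 1.63 to 2.80 in wild type, 2.73, 1.83 and 0.808 in Setd2 knockout, 2.89, 1.15 and 1.16 in MYC and 2.60, 2.37 and 0.131 in MYC Setd2 knockout.

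Other genes of the same physiology were listed by role. Of 16 phosphate regulators and partners, none passed in MYC against wild type (7.99% of all genes did), 6 had an unadjusted p under 0.05, as did 6126 of the 17019 genes tested, and the median log2 fold change was -0.88. Averaged over Setd2 status 1 fell, Xpr1, which encodes a phosphate exporter, by 0.90 ± 0.25 on the log2 scale (adjusted p = 0.045). The most abundant of this list were Kl (Klotho, the co-receptor of FGF23), Pth1r (the parathyroid hormone receptor) and Vdr (the vitamin D receptor). In MYC against wild type their values were -1.55 ± 1.06 for Kl, -1.13 ± 0.88 for Pth1r and -0.90 ± 0.43 for Vdr, with adjusted p of 0.299, 0.361 and 0.155. Kl was between 915 and 982 CPM in wild type libraries, at 1031, 243 and 200 CPM in MYC and at 32.1 CPM in MYC Setd2 knockout replicate 3.

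Of 16 other sugar and organic solute carriers, none passed in MYC against wild type, 5 had an unadjusted p under 0.05 beside the same 6126 of 17019, 15 were below 0, and the median was -1.31. Slc5a12, a lactate cotransporter, was at 1055 to 1561 CPM in wild type and 463, 102 and 97.7 in MYC, with a log2 fold change of -3.12 ± 1.23 (adjusted p = 0.106). Pdzk1ip1, which encodes a partner of SGLT2, gave -1.34 ± 0.76 (adjusted p = 0.22). Slc5a8, a monocarboxylate cotransporter, gave -0.17 ± 0.58 (adjusted p = 0.852), with CPM above wild type in MYC replicates 1 and 2.

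Of 21 genes of sodium, acid-base and ion handling, 1 rose in MYC against wild type and none fell, where 957 of all 17019 genes rose and 402 fell, with a median of -0.84. The gene that rose was Slc4a5, an electrogenic sodium-bicarbonate cotransporter related to Slc4a4, with 0.783 to 1.11 CPM in wild type and 3.33, 13.8 and 22.5 in MYC (log2 fold change 2.87 ± 0.61, adjusted p = 0.0416). This call ended in 5 of the 6 fits that left out 1 library, all but that without MYC replicate 1, with adjusted p up to 0.159 and a change of 2.34 to 3.31; in each of those 5 fits between 1 and 3 genes of the whole table were called. It also ended with the set as a term, where the change was 2.85, and without set 3, where it was 1.29. Averaged over Setd2 status Slc4a5 rose by 1.58 ± 0.42 (adjusted p = 0.0415), and Ezr, whose product ezrin anchors brush border proteins, fell by 0.61 ± 0.17 (adjusted p = 0.0466). The Ezr call ended in 6 of 8 other settings, and with total counts the change was -0.16 (adjusted p = 0.419), where the median gene shifted by 0.48. Of the sodium pump genes, Atp1b1 gave -0.80 ± 0.40 (adjusted p = 0.174) and Fxyd2 gave -1.45 ± 0.80 (adjusted p = 0.209) in MYC against wild type. Of 10 transcription factors of the segment none passed in that comparison, with a median of -1.01; Hnf4a was at -1.14 ± 0.63 (adjusted p = 0.207), Maf at -2.49 ± 0.73 (0.0588) and Ppara at -1.60 ± 0.60 (0.0954). Maf fell averaged over Setd2 status, by 1.79 ± 0.51 (adjusted p = 0.0477). Without 1 library, the calls of Xpr1, Slc4a5, Ezr and Maf averaged over Setd2 status ended in 8, 8, 9 and 9 of 12 fits, every time when a wild type library was the one left out. The changes over those 12 fits were -1.06 to -0.77 for Xpr1, 1.30 to 1.80 for Slc4a5, -0.69 to -0.55 for Ezr and -2.23 to -1.57 for Maf. Without a wild type library, calls over all genes fell from 1991 to between 1 and 3. They also fell to 6 and 3 without Setd2 knockout replicate 1 or 2, and to 4 and 1 without MYC replicate 2 or 3. Without any of the remaining libraries they were between 1442 and 4194. Of the 8 settings that left out no single library, the call ended in 3 for Xpr1, 4 for Slc4a5 and 1 for Maf, with the change at -0.48 for Xpr1 with total counts and 0.57 for Slc4a5 without set 3.

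The 10 genes did not vary alike. Their median profile, in log2 CPM relative to each gene's mean, was 0.95 to 1.24 in wild type, 1.22, 1.20 and -0.01 in Setd2 knockout, 0.40, -1.66 and -2.05 in MYC and 0.92, 0.86 and -4.63 in MYC Setd2 knockout. Slc13a3 and Slc2a2 were nearest to it, with mean absolute differences over the 12 libraries of 0.369 and 0.381, and Slc5a1 and Slc20a2 farthest, at 1.14 and 1.27. Among 12500 genes of sufficient level, those nearest included Slc5a11 (0.154), Mansc4 (0.176), Kl (0.191), Fmo1 (0.201) and Gm3716 (0.209). Slc5a11, a sodium-inositol cotransporter, was at 62.4 to 78.8 CPM in wild type, 52.5, 15.5 and 13.7 in MYC and 2.93 in MYC Setd2 knockout replicate 3. Fmo1, a flavin-containing monooxygenase, was at 736 to 776 CPM in wild type, 666, 175 and 145 in MYC and 43.6 in that library. These genes share the libraries and their sets with the transporters, and likeness of profile is given as a description only.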

How the data were processed

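The 12 libraries were poly(A)-selected, directional, paired-end RNA-seq, per the labels' protocols. The authors deposited a table of raw counts per gene symbol with transcript length; HISAT2, StringTie, Trimmomatic 0.35, cutadapt 1.9.1 and the GRCm38 build are named, without roles, in the submitters' processing notes. The length column is a value the authors deposited and was used only to compare levels between genes. CPM is a count scaled to a common library total. The 10 genes, lists and tests were chosen with earlier results of these data known.

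Counts were fitted with edgeR 4.0.16 (R 4.3.3; TMM factors 0.79 to 1.5, filterByExpr, quasi-likelihood F test, 1 model over 4 groups, 8 residual degrees of freedom), with Benjamini-Hochberg adjustment over 17019 genes and a threshold of 0.05; 13557 symbols had no count. DESeq2 1.42.0, other scalings, no filter, fewer groups, a replicate, set or Y-transcript term and leaving out libraries were alternatives. The script was tested on simulated data. Named genes are all 10 members, up to 4 called genes per list and comparison, the 3 of highest mean CPM per list, and the 6 nearest in profile among genes whose mean log2 CPM reached 1; some genes that meet this rule are not reported here. Replicates of a group differed beyond sampling noise (smallest median chi-square 1.85, against 0.45 under noise). The replicate numbers entered only the alternative fit with a replicate block, and the labels do not state what they mark. Between Setd2 knockout and MYC Setd2 knockout, same-numbered libraries deviated together (correlations 0.5, 0.63 and 0.68). In both groups replicate 3 is the only library of set 3, so these correlations cannot tell pairing from the set. In the main fit each p-value rests on a spread estimated over all 4 groups of 3 mice. Differences of set and of Y-linked transcripts within a group are part of that spread. The common coefficient of variation between libraries of a group was 0.575, and 0.272 with the set as a term.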

Additional observations from a re-analysis of the deposited data

How the results depend on the processing

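The count of the 10 genes called was 0 in every comparison and kept that value in 43 of 52 alternatives that left out no single library. In Setd2 knockout against wild type, edgeR found no gene of the whole table in any of these alternatives. Between both knockout genotypes it found none, save with the set as a term and without set 3. For the interaction it found 4 or fewer, save in the same settings. A 0 for the 10 genes was close to fixed in such fits and shows little about stability. In MYC against wild type the count of the 10 genes was 1 with DESeq2, 2 with the set term, 2 with the compared groups only, 4 without set 3, and 0 to 2 when 1 library was left out. In MYC Setd2 knockout against MYC it was 3 without set 3 and 0 to 1 when 1 library was left out. In MYC Setd2 knockout against Setd2 knockout it was 4 with the set term. For MYC averaged over Setd2 status it was 1 with DESeq2, 4 with the set term, 3 without set 3, and 0 to 2 when 1 library was left out. Every fit without set 3 holds 1 MYC library, so the counts given for it rest on an unreplicated MYC group. The counts given for the set term rest on Setd2 knockout replicate 3, the only library that links set 1 to the other sets. Same-numbered libraries did not deviate together in every pair of groups (correlations -0.67 to 0.73), and with the replicate block the count of calls was 0 in every comparison. Single log2 fold changes of the 10 genes reversed in 61 of 520 values, and those of the other named genes Pth1r and Slc5a8 in 3; they follow, and no cause of a reversal was tested. With the set as a term, the reversed values were Slc34a1 0.08, Slc34a3 0.16, Slc20a2 0.06, Slc5a2 0.16, Slc2a2 0.08, Slc13a1 0.13 and Slc13a3 0.08 in Setd2 knockout against wild type, then Slc20a2 0.11 in MYC against wild type, then Slc34a1 -2.32, Slc34a3 -0.22, Slc5a2 -0.53, Slc2a2 -0.53, Slc9a3 -0.40, Slc13a1 -0.91 and Slc13a3 -1.02 in MYC Setd2 knockout against MYC, then Slc34a3 -3.30 and Slc20a2 0.05 in MYC Setd2 knockout against Setd2 knockout, then Slc34a1 -2.40, Slc34a3 -0.38, Slc20a2 -0.06, Slc5a2 -0.69, Slc2a2 -0.61, Slc9a3 -0.35, Slc13a1 -1.03 and Slc13a3 -1.11 in the interaction, then Slc20a2 0.08 in MYC averaged over Setd2 status. Without set 3, the reversed values were Slc34a1 0.10, Slc34a3 0.18, Slc20a2 0.08, Slc5a2 0.18, Slc2a2 0.10, Slc13a1 0.14 and Slc13a3 0.10 in Setd2 knockout against wild type, then Slc20a2 0.36, Slc5a1 0.25, Pth1r 0.04 and Slc5a8 0.56 in MYC against wild type, then Slc20a2 -0.56 and Slc9a3 0.00 in MYC Setd2 knockout against MYC, then Slc13a1 0.24 in MYC Setd2 knockout against Setd2 knockout, then Slc20a2 -0.64 in the interaction, then Slc20a2 0.04 and Slc5a1 0.12 in MYC averaged over Setd2 status. With total counts, the reversed values were Slc20a2 0.18, Slc5a1 0.10, Slc9a3 0.06 and Slc13a1 0.09 in Setd2 knockout against wild type, then Slc20a2 0.60, Slc5a1 0.70 and Slc5a8 0.52 in MYC against wild type, then Slc20a2 -0.29 in MYC Setd2 knockout against MYC, then Slc20a2 0.14 in MYC Setd2 knockout against Setd2 knockout, then Slc20a2 -0.46 and Slc4a4 -0.15 in the interaction, then Slc20a2 0.37 and Slc5a1 0.10 in MYC averaged over Setd2 status. With a Y-transcript term, the reversed values were Slc9a3 0.01 and Slc13a1 0.33 in Setd2 knockout against wild type, then Slc34a1 0.05, Slc5a2 0.48, Slc2a2 0.18 and Slc13a1 0.09 in MYC Setd2 knockout against Setd2 knockout. With the replicate block, the reversed values were Slc34a3 -0.39 in MYC Setd2 knockout against Setd2 knockout. With the compared groups only, the reversed values were Slc20a2 0.01 in Setd2 knockout against wild type. When 1 library was left out, the ranges that crossed 0 were Slc34a1 -0.62 to 0.08, Slc34a3 -0.71 to 0.16, Slc20a2 -0.10 to 0.06, Slc5a2 -0.75 to 0.16, Slc2a2 -0.54 to 0.08, Slc13a1 -0.25 to 0.13 and Slc13a3 -0.44 to 0.08 in Setd2 knockout against wild type, then Slc20a2 -0.38 to 0.02, Slc5a1 -0.17 to 0.09 and Slc5a8 -0.67 to 0.08 in MYC against wild type, then Slc20a2 -0.11 to 0.29 in MYC Setd2 knockout against MYC, then Slc34a3 -0.72 to 0.67, Slc20a2 -0.20 to 0.03, Slc5a2 -1.10 to 0.18, Slc2a2 -0.81 to 0.20 and Slc13a1 -1.04 to 0.45 in MYC Setd2 knockout against Setd2 knockout, then Slc20a2 -0.09 to 0.31 in the interaction.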

Other observations

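Proximal tubule genes were unevenly low in MYC Setd2 knockout replicate 3. Pck1, the gluconeogenic enzyme, stood there at 1819 CPM beside 1747 to 2979 in wild type. Slc34a1 in the same library was at 21.1 CPM, Gatm, of creatine synthesis, at 11.9 beside 2466 to 3006, and Slc22a8, an organic anion transporter, at 7.54 beside 867 to 1181.

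In the 3 libraries without Y-linked transcripts the summed CPM of the 10 genes was 5205 in Setd2 knockout replicate 3, 10309 in MYC Setd2 knockout replicate 1 and 518 in MYC Setd2 knockout replicate 3. These libraries also differ in genotype and set, so a part of sex in their sums cannot be told apart. With a Y-transcript term the median over the 10 genes was 1.76 in MYC Setd2 knockout against MYC, beside 1.05 without it. It was 0.02 against Setd2 knockout, beside -0.46. In MYC against wild type the median was -1.72 with and without the term. That was fixed in advance, since all libraries of these groups had Y-linked transcripts, and it shows nothing about stability. The 3 libraries had the lowest Kap, a proximal tubule gene known in mouse for its androgen response, at 1251, 56 and 408 CPM, where the other 9 libraries had 7511 to 18695. Kap is among the 14 markers summed above, so the shares of that sum in these 3 libraries carry this difference.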
